A study of Sus scrofa with 6 samples.

Results

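Calpains and cathepsins are the main proteases of muscle cells outside the proteasome, and 8 of 10 listed genes of these families, with calpastatin, were found among the 12671 loci of the table. The list holds CAPN1, CAPN2, CAPN3, CAPNS1, CAST, CTSB, CTSD, CTSL, CTSH and CTSK, and a gene was taken as found when its Ensembl pig identifier, without the version, carried one of these symbols. No row matched CAST or CTSK in this way, so calpastatin and cathepsin K were not analysed here. RNA with a poly(A) tail was sequenced from longissimus dorsi, a back muscle, of female QingYu pigs, an indigenous breed of Southwestern China, with 3 libraries at the plateau phase (PP) and 3 at the growth inflection point (IP), the point of fastest growth. The paper and the growth protocol put the PP at 395 days and the IP at 178 days of age, whereas the age label of each of the 6 samples reads 178 days. No treatment or genotype separates the phases. The libraries of a phase are described as biological replicates. Expression was given as TPM, a share of reads in which longer transcripts do not count for more, so levels of different genes can be set side by side.

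Calpains are cysteine proteases of the cytosol that are switched on by calcium. CAPN1 and CAPN2 encode the catalytic subunits of the widely expressed calpains, which both pair with the regulatory subunit encoded by CAPNS1 and are both inhibited by calpastatin, the product of CAST. CAPN3 encodes a calpain found mainly in skeletal muscle, where it binds titin, and its loss causes a limb-girdle muscular dystrophy in humans. Cathepsins work mainly in the acidic lumen of lysosomes. CTSB, CTSL and CTSH are cysteine proteases of the papain type, of which CTSH acts largely as an aminopeptidase, and CTSD is an aspartic protease. Calpains in particular are known in meat science for the breakdown of myofibrils after slaughter.

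Each library summed to 998729 to 999437 TPM, and the reads behind each value are unknown, as TPM keep no depth. The libraries differed in how the total was spread. Over all loci, the median level in TPM was 2.98, 4.52 and 3.18 in the PP libraries and 4.69, 6.12 and 3.03 in the IP libraries, and a single assembled locus took between 21.8% and 35.8% of a library. PP replicate 2 thus lay with IP replicates 1 and 2, and IP replicate 3 with PP replicates 1 and 3, which touches each comparison of the phases here. The muscle label was checked with 12 fibre genes, of which 9 were found, with 35235 to 55625 TPM in all in PP libraries and 40357 to 61439 TPM in IP libraries.

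In both phases CAPN3 was by far the most abundant of the genes, and CTSL the least. On the TPM scale, the PP means ran from CAPN3 (169.5 TPM) over CTSD (33.2), CTSB (30.2), CAPNS1 (15.1), CAPN2 (14.9), CAPN1 (7.07) and CTSH (6.30) to CTSL (1.999). At the IP, the order was CAPN3 (174 TPM), CTSB (42.6), CTSD (28.6), CAPNS1 (27.7), CAPN2 (22.9), CAPN1 (12.02), CTSH (4.87) and CTSL (1.602). Among neighbours in these orders, CTSB and CTSD overlapped over libraries in both phases, as did CAPNS1 and CAPN2. CAPN1 overlapped with CTSH at the PP and with CAPN2 at the IP, where CTSD also overlapped with CAPNS1, and the other neighbours did not overlap. Such overlap does not compare genes within a library. Within each library, CAPN2 exceeded CAPN1, and CTSD exceeded CTSB at the PP and lay below it at the IP. CAPN3 held rank 282 to 648 among the 12671 loci of a library, whereas CAPN1 held rank 3020 to 4397 and CTSL rank 7168 to 11660.

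**Figure D1:**
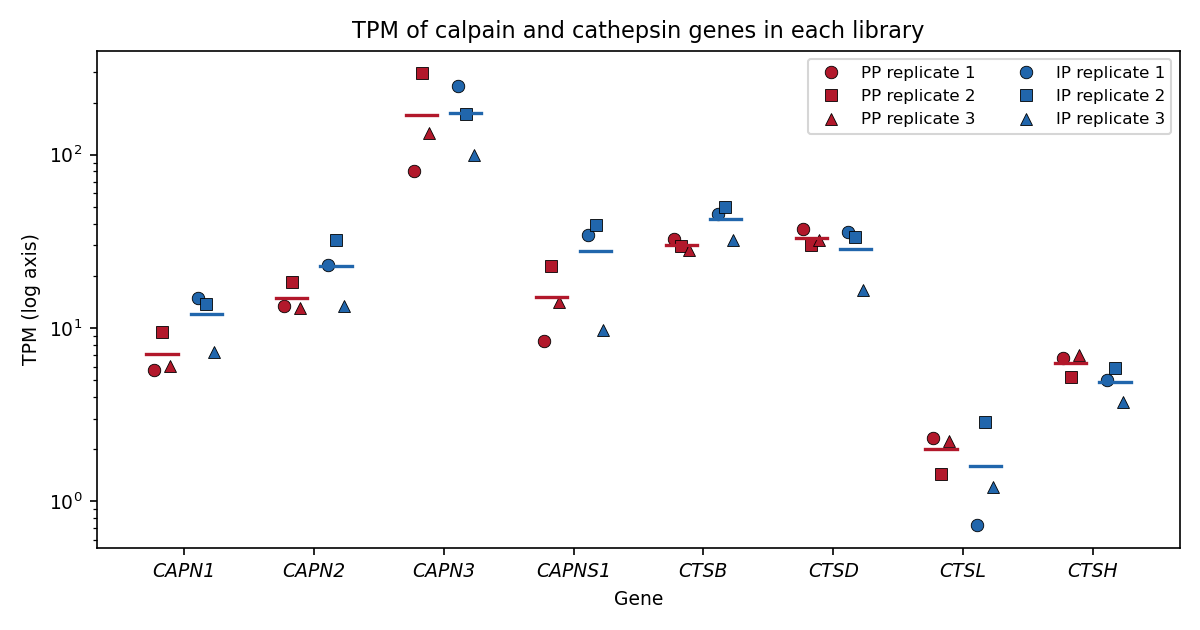
TPM (log axis) of 8 calpain and cathepsin genes in each library, with PP libraries in red, left of IP libraries in blue. Symbols mark the replicate number and short lines the phase mean (n = 3). The values of the phases overlap for each gene, and CAPN3 is the highest gene in each library.

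None of the 8 genes differed between the phases at an adjusted p under 0.05 (limma on log2(TPM + 1), Benjamini-Hochberg adjustment over 10896 tested loci), where 0.147% of all tested loci did. None had an unadjusted p under 0.05 either, against 6.93% of all tested loci, and none passed the thresholds of the paper on this fit (a log2 fold change of 1 or more in either direction with an unadjusted p under 0.05), against 2.57%. In none of the 8 did the libraries of the phases separate, against 12.8% of all tested loci. Log2 fold changes are PP minus IP on the log2(TPM + 1) scale, which understates differences of low genes. They were below 0 for 5 of the 8 genes and for 82.6% of all tested loci, and their median was -0.30 for the 8 genes and -0.25 for all tested loci. Exact two-sided permutation tests gave p values from 0.2 to 0.8 over the 8 genes, and from 0.4 to 0.8 after Benjamini-Hochberg adjustment over them. With 3 libraries against 3 such a test cannot go below 0.1. A p that misses the threshold does not show equal levels, and the intervals below give the differences that these libraries leave possible.

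CAPN1, the catalytic subunit of the calpain active at micromolar calcium, lies in Sscrofa11.1 on the minus strand of chromosome 2 between positions 6997513 and 7024410. CAPN1 had 5.74, 9.43 and 6.04 TPM in the PP libraries, against 14.99, 13.8 and 7.28 TPM in the IP libraries. IP replicate 3 lay below PP replicate 2, so the phases overlapped. The mean was 7.07 ± 2.05 TPM at the PP, against 12.02 ± 4.15 TPM at the IP (SD, n = 3 each), with a log2 fold change of -0.66 (95% confidence interval -1.44 to 0.12, adjusted p = 0.776 from limma). CAPN2, whose product needs more calcium, lies on the plus strand of chromosome 10 from 19758824 to 19820241. Its TPM were 13.4, 18.3 and 12.99 in the PP libraries, against 23.2, 32.1 and 13.5 in the IP libraries. The lowest IP library was again replicate 3, at nearly the level of PP replicates 1 and 3. CAPN2 had a log2 fold change of -0.53 (interval -1.32 to 0.26, adjusted p = 0.805 from limma).

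CAPNS1, the regulatory subunit shared by both enzymes, lies on the plus strand of chromosome 6 from 45511410 to 45518610, with an incomplete start in the RefSeq model. It had 8.48, 22.7 and 14.1 TPM in the PP libraries, against 34.3, 39.2 and 9.76 TPM in the IP libraries. Its highest library was 4.63 times its lowest, the widest spread of the 8 genes, and the phases overlapped through IP replicate 3, which lay below PP replicates 2 and 3. The log2 fold change of -0.72 therefore had a wide interval (-2.00 to 0.56, adjusted p = 0.805 from limma). Summed over CAPN1, CAPN2 and CAPNS1, the libraries held 27.6, 50.5 and 33.1 TPM at the PP, against 72.5, 85.2 and 30.5 TPM at the IP. Hence IP replicates 1 and 2 lay above each PP library and IP replicate 3 lay below 2 of the 3.

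CAPN1, CAPN2 and CAPNS1 were high in the same libraries, though the order among these differed. In all of them, and in CAPN3, the top 3 libraries were IP replicates 1 and 2 and PP replicate 2, the same 3 that had the highest median TPM over all loci. Over the 6 libraries, log2(TPM + 1) of CAPN1 and CAPN2 had a Pearson r of 0.924, that of CAPN1 and CAPNS1 0.934 and that of CAPN2 and CAPNS1 0.930, given as a description, since all genes of a library share its total. The part of the spread of TPM in a library in these values was not tested. In PP replicate 1, log2 TPM minus the mean over the 6 libraries was -0.63 for CAPN1, -0.42 for CAPN2 and -1.10 for CAPNS1, and -0.40 for the median TPM of the tested loci. In IP replicate 2 the same quantity was 0.63, 0.85 and 1.11 for these genes and 0.60 for the tested loci.

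**Figure D2:**
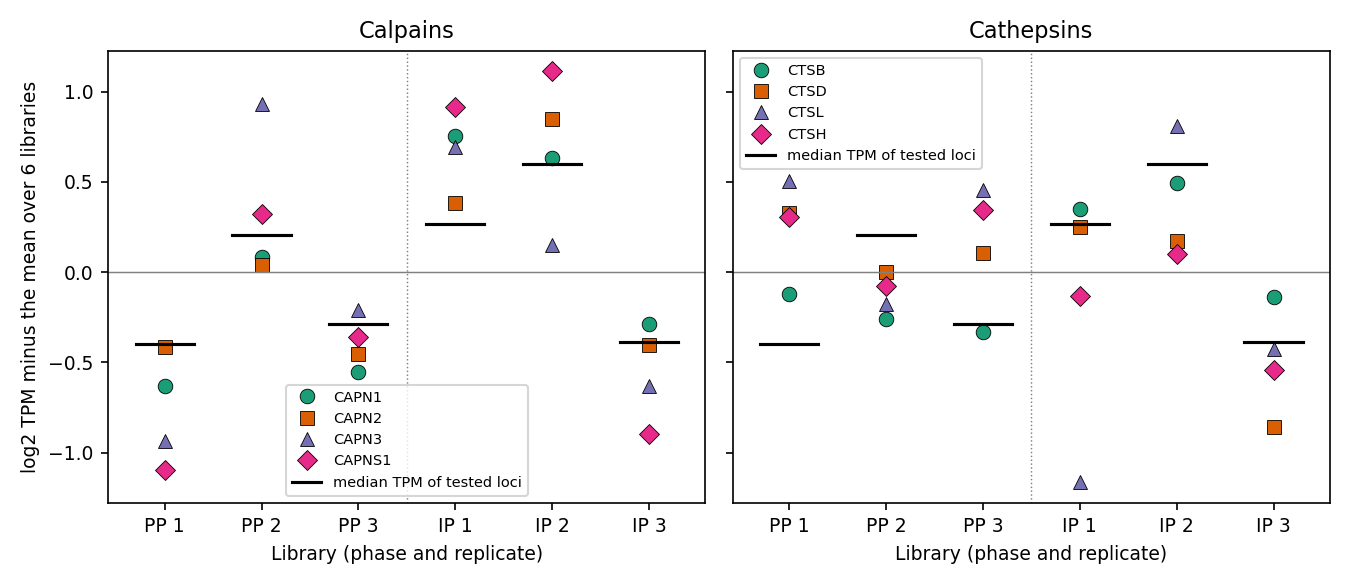
Log2 TPM of each gene minus its mean over the 6 libraries, for calpains (left) and cathepsins (right), with PP libraries left of IP libraries. Black bars give the same for the median TPM of the tested loci. Calpain points lie above 0 in PP replicate 2 and IP replicates 1 and 2 and below 0 elsewhere, as the bars do. CAPN1 and CAPN3 fall from IP replicate 1 to IP replicate 2, where the bar rises. CTSD, CTSL and CTSH lie above the bars in PP replicates 1 and 3.

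As CAPN1 and CAPN2 moved together over the libraries in TPM as deposited, the 250 bases before their curated RefSeq transcript starts (Sscrofa11.1) are shown for comparison, 5′ to 3′ on the strand of the gene, with GC boxes (GGGCGG on either strand) in capitals. The CAPN1 stretch covers chr2:7023343-7023592 on the minus strand and the CAPN2 stretch chr10:19758574-19758823 on the plus strand. The curated transcript of CAPN1 starts downstream of the 5′ end of the gene span given above, so its window lies within that span, whereas the CAPN2 window lies before its gene.
CAPN1: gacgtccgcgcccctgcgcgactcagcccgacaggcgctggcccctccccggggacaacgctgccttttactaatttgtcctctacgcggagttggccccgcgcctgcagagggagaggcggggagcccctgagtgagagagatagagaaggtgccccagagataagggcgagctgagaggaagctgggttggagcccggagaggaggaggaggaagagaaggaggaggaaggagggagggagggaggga
CAPN2: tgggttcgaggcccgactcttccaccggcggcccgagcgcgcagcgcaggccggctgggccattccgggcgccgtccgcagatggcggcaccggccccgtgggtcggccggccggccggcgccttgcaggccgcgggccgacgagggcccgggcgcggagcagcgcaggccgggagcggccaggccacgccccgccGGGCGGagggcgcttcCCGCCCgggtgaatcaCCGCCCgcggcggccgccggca
CAPN2 had 3 GC boxes in this window and CAPN1 had none, while 52.9% of 3761 such windows held at least 1. The GC content was 65.6% for CAPN1 and 82.8% for CAPN2, against a median of 61.6%. Neither window held a TATA box (TATAAA, in 10.9% of windows) or a CCAAT box (CCAAT, in 30.5%), and 1 E-box (CANNTG, in 59.3%) was found in CAPN2 only, all searched on both strands. Both genes thus had the same 3 highest libraries, and their windows differed in GC boxes and the E-box, from which nothing is drawn about any factor.

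CAPN3 lies on the minus strand of chromosome 1 from 128960117 to 129013508. It had 80.6, 295 and 133 TPM in the PP libraries, against 249.6, 171 and 99.7 TPM in the IP libraries. The highest and the lowest of the 6 libraries were both PP libraries, replicates 2 and 1. Means were 169.5 ± 111 TPM at the PP, against 174 ± 75.0 TPM at the IP (SD, n = 3 each), and the log2 fold change of -0.14 had an interval from -1.31 to 1.03 (adjusted p = 0.909 from limma). As a ratio of PP to IP, this interval runs from 0.402 to 2.04. The log2 fold change of CAPN3 was above 0 without PP replicate 1 (0.29) or IP replicate 1 (0.17), with median-ratio scaling (0.18), with quantile normalization (0.15) and with the 3 most abundant loci left out (0.039). Among 4553 genes with a symbol and a mean of at least 5 TPM, those most like CAPN3 over the 6 libraries, by Pearson r of log2(TPM + 1), were AVIL (0.997), HERPUD2 (0.997), ERGIC3 (0.992), PALS2 (0.990) and SLC41A3 (0.989). AVIL had 4.07, 35.5 and 10.3 TPM at the PP, against 24.3, 15.2 and 6.59 TPM at the IP. It was highest in PP replicate 2 and lowest in PP replicate 1, as CAPN3 was. These genes were picked for the highest r over only 6 libraries, so r and the likeness of AVIL are only a description.

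CTSB lies on the minus strand of chromosome 14 from 15014139 to 15035081, with 7 transcripts in the table. It had 32.7, 29.7 and 28.3 TPM in the PP libraries, against 45.3, 50.1 and 32.3 TPM in the IP libraries. The overlap rests on a small margin, as PP replicate 1 was only just above IP replicate 3. Means were 30.2 ± 2.28 TPM at the PP, against 42.6 ± 9.21 TPM at the IP (SD, n = 3 each). The log2 fold change was -0.46, with an interval from -1.02 to 0.10 (adjusted p = 0.783 from limma). Genes most like CTSB by the same measure were KIF1C (0.999), RGL2 (0.996), AMIGO1 (0.988), WSB2 (0.987) and ELOVL5 (0.985). KIF1C, a kinesin, had 44.3, 40.6 and 36.6 TPM at the PP, against 65.7, 73.7 and 44.0 TPM at the IP, which is the same order of libraries as that of CTSB. As above, the genes were picked for the highest r, so this order is only a description.

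CTSD lies on the minus strand of chromosome 2 from 1188548 to 1197642. Its TPM were 37.5, 30.0 and 32.2 in the PP libraries, against 35.7, 33.7 and 16.5 in the IP libraries. The 5 other libraries lay close together and IP replicate 3 far below them. With a mean of 33.2 ± 3.89 TPM at the PP, against 28.6 ± 10.5 TPM at the IP (SD, n = 3 each), CTSD had a log2 fold change of 0.28 (interval -0.47 to 1.02, adjusted p = 0.807 from limma). Without IP replicate 3 it was -0.07.

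CTSH lies on the minus strand of chromosome 7 from 48084882 to 48106072. It had 6.76, 5.20 and 6.95 TPM in the PP libraries, against 4.99, 5.87 and 3.75 TPM in the IP libraries. PP replicates 1 and 3 were above each IP library, and PP replicate 2 was below IP replicate 2. The log2 fold change was 0.32 (interval -0.28 to 0.93, adjusted p = 0.805 from limma). CTSL, on the minus strand of chromosome 10 from 27668523 to 27674705, had 2.32, 1.45 and 2.24 TPM in the PP libraries, against 0.729, 2.86 and 1.22 TPM in the IP libraries. Its highest and lowest libraries were both of the IP (log2 fold change 0.28, interval -0.49 to 1.04, adjusted p = 0.807 from limma), and at these levels the TPM of CTSL are close to the filter of 1 TPM.

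The CTSL row has a more abundant neighbour in sequence. CTSV, which lies on chromosome 10 from 25202360 to 25208058 and for which RefSeq lists CTSL among its synonyms, was not chosen by the symbols and was named after its values were seen. It had 52.1, 129.7 and 72.7 TPM in the PP libraries, against 69.6, 75.2 and 70.2 TPM in the IP libraries, from 22.5 to 95.5 times the TPM of CTSL. The IP libraries lay close together, and PP replicate 2 stood above the rest (log2 fold change 0.14, interval -0.63 to 0.90, adjusted p = 0.866 from limma). Their coding sequences were 86.0% identical over 997 aligned bases, with a longest identical run of 46 bases, against 69.8% for CAPN1 and CAPN2, 58.9% for CTSL and CTSH and 56.3% for CTSB and CTSL. The coding exons of equal length with the highest identity are printed to show how alike the loci are, 5′ to 3′ on the strand of the gene, with the bases that differ in capitals. They are the second coding exon of each gene, at chr10:27673531-27673653 on the minus strand for CTSL and chr10:25204050-25204172 on the plus strand for CTSV (Sscrofa11.1).
CTSL: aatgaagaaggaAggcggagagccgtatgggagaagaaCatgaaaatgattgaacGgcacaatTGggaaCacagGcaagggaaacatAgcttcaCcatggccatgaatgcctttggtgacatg
CTSV: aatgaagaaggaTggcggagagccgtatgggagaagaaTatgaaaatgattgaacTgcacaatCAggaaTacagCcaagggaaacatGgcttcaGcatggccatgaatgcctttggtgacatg
Of the 123 bases, 114 were identical and 9 differed. According to the paper, only part of the mapped reads could be placed at a single site of the genome. How reads common to both loci were shared out is not given in the sources used here, so the values of CTSL and CTSV are uncertain to that extent.

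**Figure D3:**
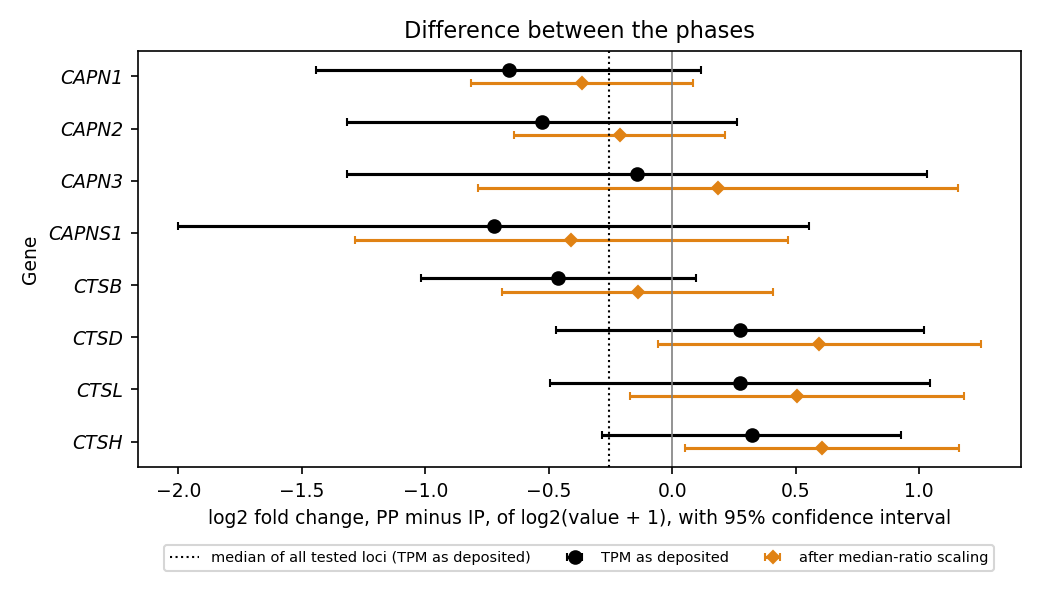
Log2 fold change (PP minus IP) of 8 genes on the log2(value + 1) scale with 95% confidence intervals from limma, for TPM as deposited (black) and after median-ratio scaling (orange), with a dotted line at the median of all tested loci. Each interval of the deposited TPM includes 0, and after scaling only that of CTSH does not (0.05 to 1.16).

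The scaling of the libraries moved the values of all genes. When each library was divided by its median ratio to the geometric mean of all libraries, with factors from 0.784 to 1.121 for PP and from 0.810 to 1.51 for IP libraries, the median over all loci moved to 0.01. The calpain genes then had log2 fold changes of -0.37 for CAPN1, -0.21 for CAPN2, -0.41 for CAPNS1 and 0.18 for CAPN3. CTSH was at 0.61, CTSD at 0.60, CTSL at 0.51 and CTSB at -0.14. Of the 8 genes, 1 then had an unadjusted p under 0.05, CTSH (adjusted p = 0.569 from limma), where 8.06% of all loci did. On this scale CTSH was 8.62, 4.63 and 8.42 in the PP libraries, against 4.26, 3.88 and 4.63 in the IP libraries, so that the phases were apart only by the small gap between PP replicate 2 and IP replicate 3. CAPN1 was 7.31, 8.41 and 7.32 in the PP libraries, against 12.8, 9.11 and 8.99 in the IP libraries, also without overlap. This was 1 of 8 genes higher at the PP without overlap and 1 of 8 higher at the IP, against 7.32% and 6.64% of all loci after scaling.

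Ratios between genes of 1 library do not depend on its scaling. Of 7 ratios computed, 1 did not overlap between the phases and it was picked for that, so no test is given. The ratio of CTSB to CTSD was 0.873, 0.990 and 0.879 in the PP libraries, against 1.27, 1.49 and 1.96 in the IP libraries. TPM of CTSD thus exceeded those of CTSB in each PP library, and TPM of CTSB exceeded those of CTSD in each IP library. CAPN2 to CAPN1, the ratio of both catalytic subunits, was 2.33, 1.95 and 2.15 in the PP libraries, against 1.55, 2.33 and 1.85 in the IP libraries. CAPN3 to CAPN1 was 14.1, 31.3 and 22.1 in the PP libraries, against 16.7, 12.4 and 13.7 in the IP libraries. For CAPNS1 over the sum of CAPN1 and CAPN2, the values were 0.444, 0.817 and 0.741 in the PP libraries, against 0.896, 0.854 and 0.470 in the IP libraries. These 3 ratios overlapped between the phases, and the regulatory subunit was lowest relative to the catalytic ones in PP replicate 1 and IP replicate 3.

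**Figure D4:**
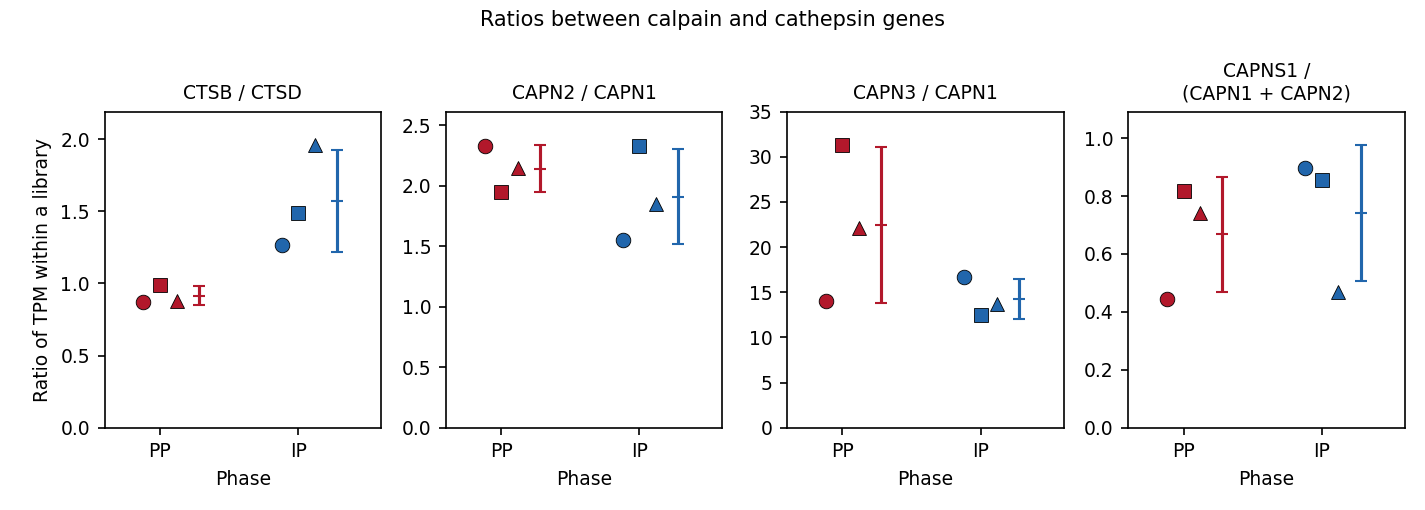
Ratios of TPM within each library, with PP libraries (red) left of IP libraries (blue), circles, squares and triangles for replicates 1, 2 and 3, and bars for the mean ± SD (n = 3). CTSB to CTSD lies below 1 in each PP library and above 1 in each IP library, and the other ratios overlap.

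The other genes of these systems were taken from lists. Of 12 other calpains, 4 were found and 3 tested, of which none passed at an adjusted p under 0.05 and none had an unadjusted p under 0.05. CAPN10, a calpain linked to diabetes risk in humans, had 1.62, 1.503 and 1.15 TPM in the PP libraries, against 2.28, 2.21 and 2.18 TPM in the IP libraries, without overlap (log2 fold change -0.42, adjusted p = 0.776 from limma). That made 1 of 3 higher at the IP without overlap, where 10.8% of all tested loci were. CAPN6 (-0.48) and CAPN7 (-0.26) overlapped. Of 10 other cathepsins, 7 were found and 6 tested, with a median log2 fold change of -0.02 and none past either p. CTSC, a dipeptidyl peptidase, had 17.4, 58.6 and 26.5 TPM in the PP libraries, against 30.1, 31.3 and 18.6 TPM in the IP libraries. It was highest in PP replicate 2, as CTSV and CAPN3 were. CTSA (-0.33), CTSF (-0.14) and CTSC (0.20) had the smallest p of that list.

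Of 11 inhibitors of cathepsins and related proteases, 9 were found and 6 tested. None passed at an adjusted p under 0.05, and 1 of the 6, CST6, had an unadjusted p under 0.05, against 6.93% of all tested loci. CST6 encodes cystatin M, an inhibitor of papain-type cathepsins, and had 17.3, 6.14 and 12.3 TPM in the PP libraries, against 19.3, 24.6 and 22.6 TPM in the IP libraries. It did not overlap (log2 fold change -0.94, adjusted p = 0.667 from limma). CST3, cystatin C, had 78.5, 42.6 and 63.2 TPM in the PP libraries, against 45.4, 43.7 and 34.7 TPM in the IP libraries (0.53, adjusted p = 0.783 from limma). The third gene named by p, SERPINB1, an inhibitor of serine proteases, had a log2 fold change of -0.46.

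Lysosomal genes lay near the median of all loci. Of 28 hydrolases and membrane proteins of the lysosome, 25 were tested, with a median of -0.28, none past the adjusted threshold and 1 of the 25 with an unadjusted p under 0.05, against 6.93% of all tested loci. This was LGMN, the asparagine endopeptidase legumain that processes cathepsins, with 7.60, 6.03 and 7.64 TPM in the PP libraries, against 9.09, 21.1 and 11.2 TPM in the IP libraries (log2 fold change -0.79, adjusted p = 0.707 from limma). CD63 (0.37) and CLN3 (-0.37) followed by p. Among 18 sorting and biogenesis factors, 15 were tested with a median of -0.27, and ATP6AP1 (-0.46), GNPTAB, which makes the mannose phosphate tag of lysosomal enzymes (-0.47), and TFE3, a transcription factor of lysosomal genes (-0.38), had the smallest p. None of the 15 had an unadjusted p under 0.05. Nor did any of 9 tested caspases and effectors, with a median of -0.30, with XIAP at -0.64 and DIABLO at -0.37, or of 15 tested proteins of sarcomere and cytoskeleton that calpains cut, with a median of -0.26, led by TNNI2 (0.35), MYBPC2 (-0.49) and TPM1 (-0.30). Across these 7 lists, 5 of 79 tested genes were higher at the IP without overlap and 0 higher at the PP, against 10.8% and 2.02% of all tested loci.

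**Figure D5:**
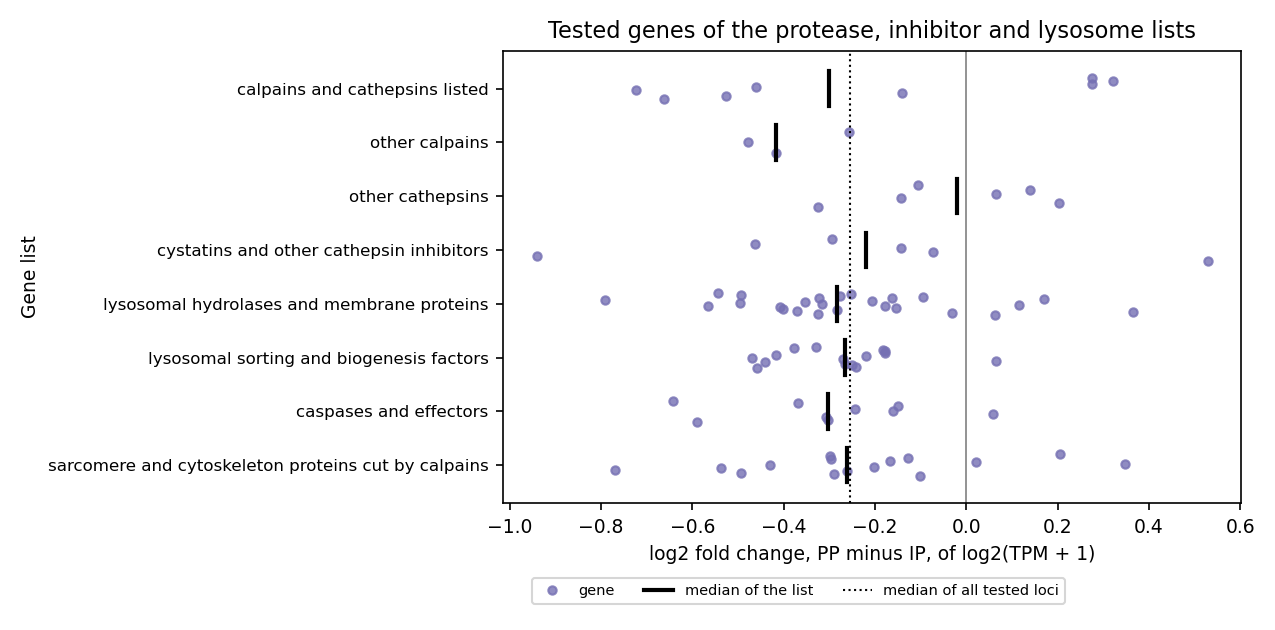
Log2 fold change (PP minus IP, log2(TPM + 1) scale) of each tested gene in 8 lists, 1 point a gene, with the list median as a black bar and the median of all tested loci as a dotted line. List medians lie between -0.42 and -0.02 around the median of all tested loci of -0.25.

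Cathepsins are also made by cells other than fibres, and in bulk muscle fewer cells of a type and less RNA per cell cannot be told apart. Of 16 macrophage markers, 13 were found, with none at 0, and their TPM summed to 108, 53.5 and 86.2 in the PP libraries, against 49.5, 93.5 and 62.9 in the IP libraries. CTSL was lowest in IP replicate 1 and high in IP replicate 2 and PP replicates 1 and 3, as this sum was, and the part of macrophages in its values was not tested. The most abundant of these markers were TYROBP (18.7 TPM at the PP, against 9.05 at the IP), C1QC (19.4 and 16.4) and C1QA (11.9 and 12.01), and 2 of 12 tested markers, TYROBP and VSIG4, were higher at the PP without overlap, against 2.02% of all tested loci. TYROBP alone of the 12 had an unadjusted p under 0.05 (log2 fold change 1.01, adjusted p = 0.686 from limma), against 6.93% of all tested loci. The list was mixed, with 7 of the 12 above 0 and 5 below, such as FCER1G (-0.44) and CD68 (-0.17). Of 6 osteoclast markers, 1 was found, the receptor TNFRSF11A (1.06 TPM at the PP, against 1.25 at the IP). Of 10 fibroblast markers, 9 were found, summing to between 206 and 334 TPM in PP libraries and between 259 and 461 TPM in IP libraries, and 3 collagens among them, COL1A1, COL1A2 and COL3A1, were higher at the IP without overlap (against 10.8% of all tested loci), each with an unadjusted p under 0.05 (against 6.93%) and none past the adjusted threshold. DCN, the most abundant marker of this list, had 211, 146 and 172 TPM in the PP libraries, against 112, 173 and 151 TPM in the IP libraries, with a log2 fold change of 0.28. Marker sums of 6 of 8 adipocyte genes lay between 262 and 535 TPM at the PP, against 259 and 357 TPM at the IP. These sums were mostly FABP4, with a mean of 340 TPM at the PP, against 249.5 TPM at the IP. Of the 6, all tested, 1 was higher at the IP without overlap, CIDEC, against 10.8% of all tested loci. CIDEC had a mean of 4.15 TPM at the PP, against 12.7 TPM at the IP (log2 fold change -1.44, adjusted p = 0.175 from limma). It alone of the 6 had an unadjusted p under 0.05, against 6.93% of all tested loci. Sums of 6 of 8 endothelial genes lay between 39.3 and 47.5 TPM at the PP, against 43.7 and 89.5 TPM at the IP. For 5 of 7 satellite cell genes, sums lay between 26.9 and 31.8 TPM at the PP, against 38.4 and 61.0 TPM at the IP. Of 4 tested, 1 was higher at the IP without overlap, ITGA7, against 10.8% of all tested loci. ITGA7 had a mean of 11.9 TPM at the PP, against 27.5 TPM at the IP (log2 fold change -1.10, adjusted p = 0.415 from limma). It alone of the 4 had an unadjusted p under 0.05, against 6.93% of all tested loci. The other tested genes of this list overlapped, with log2 fold changes of -0.53 for CDH15, -0.10 for VCAM1 and -0.09 for MYF5. Much of the difference between the sums was thus that of ITGA7. For 2 of 7 lymphocyte genes, sums lay between 1.45 and 2.14 TPM at the PP, against 1.62 and 3.16 TPM at the IP. Of 8 genes often used as references, 5 were found, all with a log2 fold change below 0 and a median of -0.45, led by p by SDHA (-0.45), YWHAZ (-0.48) and ACTB (-0.59).

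Leaving out 1 library moved several values. Without IP replicate 3, CAPN1 (-0.96), CAPN2 (-0.85), CAPNS1 (-1.33) and CTSB (-0.64) had an unadjusted p under 0.05 and an adjusted p from 0.183 to 0.205 in limma. Unadjusted p under 0.05 were then found for 21.6% of all tested loci, so 4 of 8 genes stand against a raised background, and the median over all loci moved to -0.44. Without IP replicate 2, CAPNS1 was at -0.37 and CAPN2 at -0.25. CTSL was at 0.60 without IP replicate 2 and at 0.023 without IP replicate 1. Unadjusted p under 0.05 in limma were also found for CTSL without IP replicate 2, CAPN1 without PP replicate 2 (-0.86) and CTSH with quantile normalization (0.60). Their adjusted p in limma ran from 0.497 to 0.9998, and no share over all loci is given for these settings.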

How the data were processed

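RNA-seq was run on longissimus dorsi of QingYu pigs, with 3 PP and 3 IP libraries grouped by sample title. According to the methods, mRNA was enriched with oligo(dT) beads and sequenced in pairs on an Illumina instrument. TopHat and the build Sscrofa11.1 stand in the processing notes of the submitters, while the methods text names an earlier pig build. The authors deposited TPM per locus for the 6 libraries, without read counts. The text of the paper states an approximate yield of reads after filtering. TPM do not keep the reads behind each value, so no counting interval is given. Identifiers were paired with symbols for 9764 of 12671 loci, and 427 loci were assembled without an Ensembl identifier. Coordinates and sequences are from RefSeq on Sscrofa11.1.

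Loci with at least 1 TPM in at least 3 libraries (10896) were tested on log2(TPM + 1) with limma 3.58.1 (R 4.3.3, trended variance, phase as the only term, Benjamini-Hochberg adjustment, threshold 0.05), which was tested on simulated data. Exact permutation tests used scipy 1.17.1. The genes and lists were chosen with earlier results of these data known. Named were all listed calpains and cathepsins found, the 3 tested genes of smallest p in each other list, for markers of other cell types the 3 of highest mean TPM, and the 5 genes most like the most abundant listed calpain (CAPN3) and the most abundant listed cathepsin (CTSB). CTSV, COL1A1, VSIG4, FCER1G, CD68, CIDEC, MYF5 and the ratio of CTSB to CTSD were named after their values were seen. One gene that this rule names is not reported here. In total, 17 alternatives were run, covering pseudocount, filter, scaling, variance model, replicate block and leaving out each library.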

Additional observations from a re-analysis of the deposited data

How the results depend on the processing

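None of the 8 genes passed an adjusted p of 0.05 in limma under any of the 17 alternatives, and the lowest adjusted p was 0.183 (CAPNS1 without IP replicate 3). Over these alternatives CAPN1, CAPN2, CAPNS1 and CTSB stayed below 0 and CTSH above 0, and CTSL was above 0 in the 16 in which it was tested, though at only 0.023 without IP replicate 1 and at 0.60 without IP replicate 2. Of 556 values for 33 genes, 540 kept their direction and 16 reversed. Alternatives of the filter, the variance model and the replicate block leave a log2 fold change as it is. Their values could not reverse and are counted among the 540, so this count overstates stability. CAPN3 reversed to 0.18 with median-ratio scaling, 0.15 with quantile normalization, 0.039 with the 3 most abundant loci left out, 0.29 without PP replicate 1 and 0.17 without IP replicate 1. CTSD reversed to -0.067 without IP replicate 3. CTSF reversed to 0.17, 0.18 and 0.031 under the same 3 scalings and to 0.069 without IP replicate 1, CAPN7 to 0.0032 and 0.011 with median-ratio and quantile scaling, and TPM1 to 0.031 with median-ratio scaling. CTSC reversed to -0.27 without PP replicate 2 and -0.03 without IP replicate 3, and CTSV to -0.22 without PP replicate 2. With 1 library left out at a time, log2 fold changes ran from -0.64 to 0.29 for CAPN3, -0.067 to 0.47 for CTSD, -0.33 to 0.069 for CTSF, -0.27 to 0.58 for CTSC and -0.22 to 0.43 for CTSV. The cause was not tested.

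Over all loci, 16 passed the adjusted threshold, against 4 with a pseudocount of 5, 0 with at least 1 TPM required in all libraries, 3 with the replicate block and 1 to 14 with 1 library left out. The thresholds of the paper gave 280 loci, against 429 with a pseudocount of 0.1, 108 with a pseudocount of 5, 460 without PP replicate 2, 165 without IP replicate 2 and 899 without IP replicate 3. Deviations of libraries of the same replicate number correlated at -0.53, 0.20 and 0.22, and those of PP replicate 1 and IP replicate 3 at 0.64. This cannot decide whether the samples were paired, as the deviations also hold the spread of TPM in a library. TPM keep no depth, so sampling error of low genes such as CTSL cannot be given.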
